A study of Rattus norvegicus with 8 samples.

Results

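The insulin-like growth factor (IGF) family was followed in the cervical periodontal ligament (PDL) of the rat at postnatal days 18 (P18) and 28 (P28). The PDL is the connective tissue that ties the tooth root to the bone of its socket, and the teeth come into occlusal contact between these ages. The family was taken by name from the deposited count table: 2 ligands (Igf1, Igf2), 2 receptors (Igf1r, Igf2r) and 6 binding proteins (Igfbp2 to Igfbp7), 10 of the 17337 genes listed. The family was chosen by a measured value, the strong rise of Igfbp6 between the ages in these same 8 libraries. All differences between P18 and P28 within the family are therefore given as descriptions and are not independent evidence. No p-value of a member is printed. Calls of members rest on adjusted p-values of this same contrast, so they too are descriptions only. All 10 genes passed the filter on low counts.

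Each age had 4 animals with normal growth and no treatment, and each library was taken as 1 animal (Rattus norvegicus; the sources used here give no strain or sex). The cervical part of the ligament was laser micro-dissected, and total RNA was made into libraries with the SMARTer Ultra Low kit for small inputs. The capture is a tissue area and not a sorted cell type, so the RNA of bone, epithelium, vessels and blood near the ligament can be in it. In such bulk samples, fewer cells of a type and less RNA per cell cannot be told apart.

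IGF1 and IGF2 are secreted peptides that drive growth and survival through IGF1R, a receptor tyrosine kinase that signals to PI3 kinase with AKT and to RAS with the MAP kinases. IGF2R, also known as the cation-independent mannose 6-phosphate receptor, takes up IGF2 and sends it to lysosomes. Binding proteins hold the ligands outside the cell, extend their life and, for the most part, limit their access to the receptor, and proteases release the ligands again. In bone and ligament the growth factors come both from the circulation and from local cells, and the binding proteins are made by fibroblasts and osteoblasts among others.

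Total counts ran from 5252693 (P28 replicate 4) to 26645656 (P18 replicate 2), so a count of 0 allows up to 3 counts, or 0.108 to 0.624 CPM (counts scaled to library size); these limits cover counting error only. CPM are scaled with TMM factors throughout. P28 replicate 4 stood apart: its score on principal component 1, with 26.9% of the variance, was 163, and those of the other 7 libraries were -40.9 to 3.60. Summed CPM of 11 ligament fibroblast markers ran from 96233 to 137640 at P18 and from 138133 to 196318 at P28. Only Aspn among them was at 0 in any library. The mean log2 CPM of the list, where each tested gene has the same weight, overlapped between the ages. It was 9.86 to 10.28 at P18 and 9.75 to 10.79 at P28. Of the 10 tested, 8 had log2 fold changes above 0 and 2 below (-2.43 to 2.97). Summed CPM of 9 osteoclast markers were 5738 and 8072 in P28 replicates 1 and 3 and 1197 to 2155 in the other 6 libraries. Calcr and Oscar of that list were at 0 in some libraries. Epithelial markers (12 genes) summed to 43.1 to 716 CPM at P18 and to 292, 6277, 1126 and 160 CPM in P28 replicates 1 to 4. Krt15, Krt19, Krt8, Krt18, Cdh1 and Dsg3 among them were at 0 in some libraries. All 9 tested had log2 fold changes above 0 (median 2.41). Summed CPM of 10 osteoblast markers ran from 3874 to 5928 at P18 and from 5817 to 10358 at P28, with Sost and Mepe at 0 in some libraries and a median log2 fold change of 1.38 over the 9 tested. Of 11 macrophage markers 10 were above 0 (640 to 2263 CPM at P28, 743 to 1239 at P18). All 7 tested erythroid markers were below 0 (median -1.17; 2682 to 8879 CPM at P18, 678 to 4535 at P28), with Epor at 0 in some libraries. Of 5 tested enamel organ markers 4 were below 0 (median -6.36, with 15.1 to 4859 CPM at P18 and 11.9 to 643 at P28). Of the 8 listed, 6, Amelx and Enam among them, were at 0 in some libraries. Of 7 tested neutrophil markers 6 were below 0 (median -1.92). Calls by edgeR (adjusted p under 0.05) were 2 lower for enamel organ markers and 1 higher and 1 lower for fibroblast markers. Osteoblast, osteoclast and melanocyte markers had 1 called higher each. Over all genes tested, 0.516% were called higher and 0.420% lower. The part of these cell types in the results was not tested.

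The upstream regions of Igfbp6, Igfbp4 and Igfbp7 are shown because Igfbp6 and Igfbp4 are the 2 members that were called, and Igfbp7 is the other member that DESeq2 and voom, though not edgeR, called. Each is the 250 bases before the gene's start, on the gene's strand, 5′ to 3′, from the RefSeq promoter table (assembly GRCr8). Capitals mark TATAAA (gene strand only), GGGCGG or its reverse complement CCGCCC, and CAGCTG. The windows are chr7:135154669-135154918 (plus strand) for Igfbp6, chr10:84491221-84491470 (plus strand) for Igfbp4 and chr14:31091486-31091735 (plus strand) for Igfbp7.
Igfbp6: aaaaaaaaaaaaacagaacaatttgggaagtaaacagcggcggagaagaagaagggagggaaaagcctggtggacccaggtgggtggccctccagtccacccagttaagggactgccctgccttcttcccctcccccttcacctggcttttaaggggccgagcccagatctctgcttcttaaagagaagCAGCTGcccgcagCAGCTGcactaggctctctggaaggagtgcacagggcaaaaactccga
Igfbp4: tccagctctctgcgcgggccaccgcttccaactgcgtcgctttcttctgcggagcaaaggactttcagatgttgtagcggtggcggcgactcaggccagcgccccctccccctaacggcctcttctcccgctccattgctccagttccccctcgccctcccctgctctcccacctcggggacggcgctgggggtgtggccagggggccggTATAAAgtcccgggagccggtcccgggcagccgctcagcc
Igfbp7: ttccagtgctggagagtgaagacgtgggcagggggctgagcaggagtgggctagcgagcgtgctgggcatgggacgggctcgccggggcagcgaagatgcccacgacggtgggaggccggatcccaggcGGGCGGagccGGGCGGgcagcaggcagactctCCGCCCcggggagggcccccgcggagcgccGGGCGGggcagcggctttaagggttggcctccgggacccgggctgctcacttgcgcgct

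The Igfbp6 window held 5 CpG pairs at a GC content of 54.8%, near the medians of 5 and 51.2% over 33469 windows of the same length. Those of Igfbp4 and Igfbp7 held 21 and 26 CpG pairs at 68.8% and 74.4% GC. CAGCTG occurred 2 times upstream of Igfbp6 and in 12.0% of all windows. TATAAA occurred once upstream of Igfbp4, starting 40 bases before the start (8.06% of all windows). GGGCGG or its reverse complement occurred 4 times upstream of Igfbp7 (30.5% of all windows). Among the 11 entries for the family, CAGCTG was found only before Igfbp6 and TATAAA only before Igfbp4. These matches are letters in a window and show no binding.

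Within the family, 1 gene was called higher at P28 (Igfbp6) and 1 lower (Igfbp4) by the quasi-likelihood test of edgeR at an adjusted p under 0.05. Of all 10472 genes tested, 0.516% were called higher and 0.420% lower. For the same 2 members the ages did not overlap in any library. This held for 10.4% of all genes tested, 4.91% with P28 higher and 5.54% with P28 lower. The other 8 members overlapped. Log2 fold changes (P28 over P18) were above 0 for 5 members and below 0 for 5, with a median of 0.06, against 0.01 over all genes tested. The median size of the change, whatever its sign, was 0.67 in the family and 0.48 over all genes. Since the rule used this contrast, nothing is read from these counts.

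**Figure D1:**
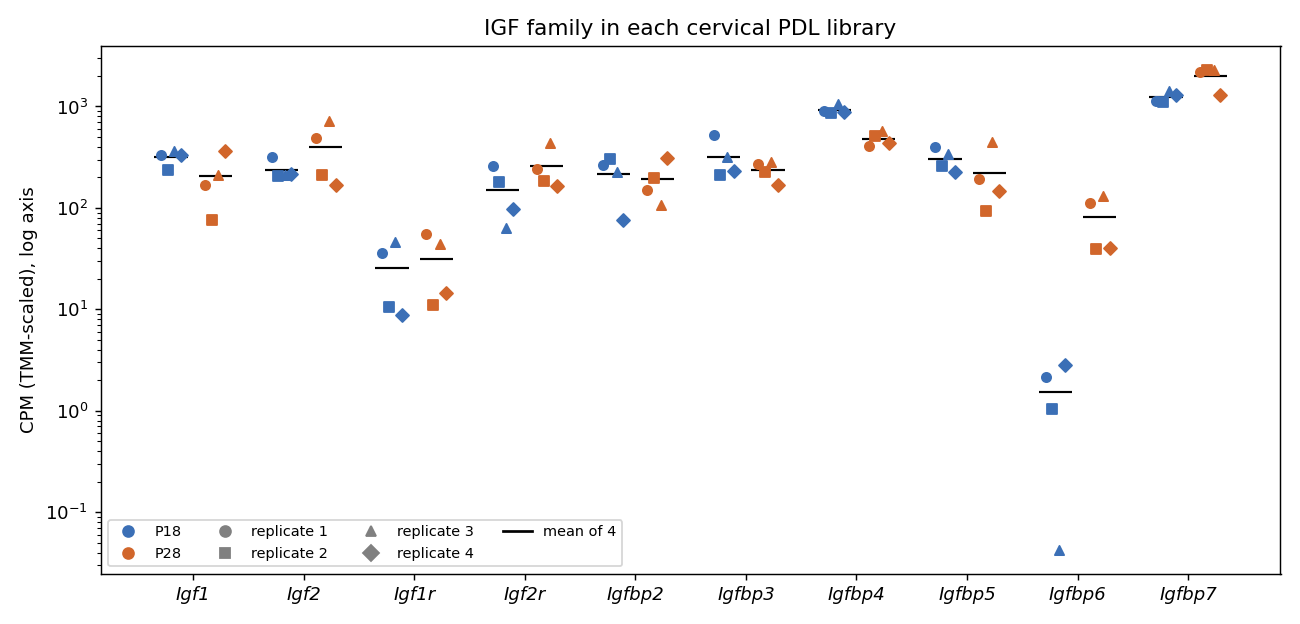
CPM of the 10 family members (x axis) in each library on a log axis, with P18 in blue, P28 in orange, 1 symbol per replicate number and a bar at the mean of 4. Igfbp6 lay between 0.0427 and 2.80 at P18 and between 39.5 and 130 at P28, Igfbp4 was lower in every P28 library, and the other members overlapped; heights of different genes are not comparable, since CPM are not divided by length.

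Of the ligands, Igf1, which growth hormone induces in liver and locally in many tissues, lay at 335, 235, 368 and 336 CPM in P18 replicates 1 to 4. At P28 it lay at 166, 75.7, 213 and 364 CPM. P28 replicates 1 to 3 were thus below every P18 library, while P28 replicate 4 was among the highest of all. The means were 318 ± 57.7 and 205 ± 120 CPM (SD, n = 4 per age), with a log2 fold change of -0.64 ± 0.37 (SE). Without P28 replicate 4 the log2 fold change was -1.07, and it was not called in either fit.

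Igf2, the growth factor of the fetus, went the other way in value. It lay at 317, 206, 213 and 217 CPM in P18 replicates 1 to 4 and at 487, 212, 716 and 168 CPM in P28 replicates 1 to 4. P28 replicates 1 and 3 were above every P18 library, and P28 replicates 2 and 4 were within or below the P18 range. The log2 fold change was 0.73 ± 0.39 and not called, 0.28 without P28 replicate 3 and 0.99 without P28 replicate 4. P28 replicates 1 and 3 were also the 2 libraries with the most osteoclast marker RNA. Summed fibroblast markers (173152 and 196318 CPM) and melanocyte markers were highest in these 2 libraries too, and those of the other cell types were not. The part of any of these cells in the Igf2 level was not tested.

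The ratio of Igf2 to Igf1 showed the ligands side by side within each library. Its own size depends on the lengths of the transcripts, so only its course across libraries is read. At P18 it was 0.946, 0.878, 0.580 and 0.645 in replicates 1 to 4, and at P28 2.93, 2.80, 3.37 and 0.461. P28 replicates 1 to 3 all lay above P18, and P28 replicate 4, the library that stood apart, lay below all others. H19, the imprinted non-coding RNA made next to Igf2 from a shared control region, fell. It lay at 152, 93.6, 117 and 83.9 CPM in P18 replicates 1 to 4 and at 20.1, 21.3, 27.2 and 29.5 CPM in P28 replicates 1 to 4, without overlap. From means of 111 ± 30.1 and 24.6 ± 4.55 CPM the log2 fold change was -2.18 ± 0.29, with an edgeR adjusted p of 0.00681. H19 was called in 8 of 8 fits that left out 1 library. The ratio of H19 to Igf2 was 0.387 to 0.548 at P18 and 0.0380 to 0.176 at P28.

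**Figure D2:**
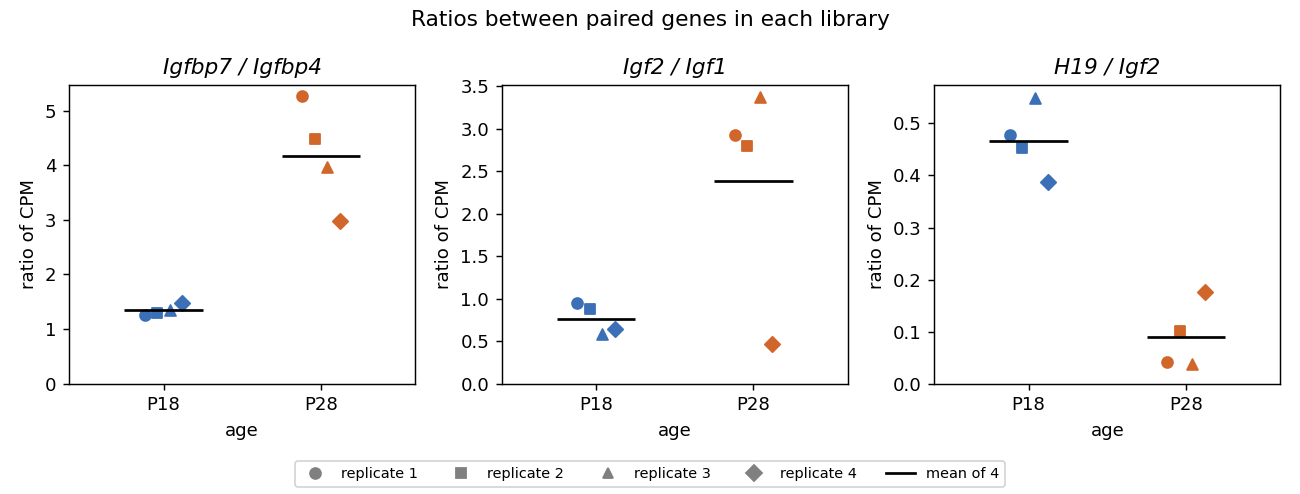
Ratios of CPM (y axes, from 0) within each library for 3 pairs of genes by age, 1 symbol per replicate number, bars at the mean of 4. Igfbp7 over Igfbp4 was 1.26 to 1.47 at P18 and 2.98 to 5.27 at P28. Igf2 over Igf1 was higher in P28 replicates 1 to 3 but not in replicate 4, and H19 over Igf2 was lower in every P28 library. Igfbp4 and H19 by themselves were lower in every P28 library, so the separation of their ratios is not a further result.

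The receptors overlapped between the ages and varied widely between animals. Igf1r, the signalling receptor, lay at 35.8, 10.4, 46.5 and 8.76 CPM in P18 replicates 1 to 4 and at 55.3, 11.1, 44.2 and 14.4 CPM in P28 replicates 1 to 4. Each age held a pair of high libraries (replicates 1 and 3) and a pair of low ones, at a coefficient of variation of 73.8% at P18 and 70.1% at P28. Replicate numbers were not taken to tie animals across ages. The log2 fold change was 0.30 ± 0.67 and not called, and its sign turned without P28 replicate 1 (-0.12).

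Igf2r, the scavenger of IGF2, lay at 256, 181, 63.3 and 98.1 CPM in P18 replicates 1 to 4 and at 244, 186, 437 and 164 CPM in P28 replicates 1 to 4. All P28 libraries were above the 2 lower P18 libraries, but only P28 replicate 3 was above the highest P18 library. The log2 fold change was 0.78 ± 0.42 and not called. The related insulin receptor gene Insr had means of 5.79 ± 6.06 and 10.7 ± 5.56 CPM, a difference of 0.88 ± 1.26 on the log2 scale (edgeR adjusted p = 0.806). Insr had 0 counts in P18 replicate 3.

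Igfbp6, a secreted protein that prefers IGF2 over IGF1, had few counts at P18 and many at P28. It had 24, 29, 1 and 55 counts in P18 replicates 1 to 4, or 2.17, 1.04, 0.0427 and 2.80 CPM. At P28 it had 1923, 378, 1600 and 195 counts, or 113, 39.5, 130 and 40.6 CPM. The lowest P28 library thus lay above the highest P18 library by more than the whole P18 range, and within P28 replicates 1 and 3 were high and replicates 2 and 4 low. P28 replicates 1 and 3 are also the libraries with the most osteoclast marker RNA (5738 and 8072 CPM, against 1197 and 2155 in P28 replicates 2 and 4). Fibroblast markers split the same way, at 173152 and 196318 CPM against 138133 and 150999. So did the melanocyte, neutrophil and enamel organ marker sums at P28, and those of the other cell types did not. The part of any of these cells in the Igfbp6 level was not tested. The log2 fold change was 5.76 ± 0.89, the 10th largest rise of 10472 genes tested. The family was chosen for this rise, so a high rank follows from the choice. The size of the log2 fold change rests on few P18 counts. It was 5.33 without P18 replicate 3, which held the single count, and 5.33 to 6.29 over the 8 fits that left out 1 library. Igfbp6 was no longer called without P18 replicate 2, P28 replicate 1 or P28 replicate 3, at log2 fold changes of 5.60, 5.55 and 5.42, or with the replicate number as a block (5.86).

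Of the 2 protein-coding genes on each side of it in RefSeq, Spryd3 and Csad were tested. Neither was called. Spryd3 differed by 0.11 ± 0.46 and Csad by -0.10 ± 0.33 on the log2 scale (edgeR adjusted p = 0.947 and 0.930), and the ages overlapped for both. Csad encodes an enzyme of taurine synthesis.

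Profiles most like that of Igfbp6 were sought among 7818 genes, by the root mean square difference of log2 CPM over the 8 libraries after each profile was centred on its mean. The nearest were Cgnl1 (1.29), which encodes a tight junction protein, Scara5 (1.41), a scavenger receptor for ferritin, Mlana (1.44) and Mt3 (1.51), against a median of 3.32 over all genes compared. Cgnl1 was at 10.2, 2.20, 0.128 and 12.3 CPM in P18 replicates 1 to 4, with its minimum in replicate 3 as for Igfbp6, and at 62.9, 24.4, 41.8 and 48.3 CPM in P28 replicates 1 to 4. Scara5 was likewise lowest in P18 replicate 3, at 0.213 CPM. Mlana and Mt3 share with Igfbp6 the higher values in P28 replicates 1 and 3, at 102 and 121 CPM for Mlana and 584 and 1041 CPM for Mt3. All of these genes were picked for their likeness to Igfbp6 over the same 8 libraries, so such shared traits follow from the choice. Mlana is best known from melanocytes. Of the 5 melanocyte markers in the table, Tyr, Tyrp1 and Slc45a2 had 0 counts in all 8 libraries, and the sum, Mlana included, was 2.41 to 19.1 CPM at P18 and 55.9 to 136 CPM at P28.

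Igfbp4, which holds IGFs away from the receptor and is cut by the protease PAPP-A, had the lowest coefficients of variation of the family, 9.86% at P18 and 15.4% at P28. It lay at 894, 860, 1060 and 886 CPM in P18 replicates 1 to 4 and at 411, 511, 574 and 434 CPM in P28 replicates 1 to 4. Every P28 library was below every P18 library. The means were 925 ± 91.3 and 483 ± 74.5 CPM, and the log2 fold change was -0.94 ± 0.18. Over the fits that left out 1 library the log2 fold change was -1.03 to -0.87. Igfbp4 was no longer called without any 1 of the P18 replicates 1, 2, 3 and 4 (log2 fold change -0.95, -0.98, -0.88 and -0.96) or P28 replicate 1 (-0.87), or with the replicate number as a block (-0.95). The protease gene Pappa was too low to test, with 185 counts in all, of which 132 were in P28 replicate 2. Stc1, which encodes an inhibitor of that protease, had means of 33.6 ± 11.0 and 15.1 ± 7.31 CPM, with an edgeR adjusted p of 0.301. Pappa and Stc1 were named after their values were seen.

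Igfbp7, which binds IGFs weakly and is found in vessels and connective tissue matrix, lay at 1125, 1114, 1428 and 1302 CPM in P18 replicates 1 to 4. At P28 it lay at 2166, 2293, 2275 and 1292 CPM. P28 replicates 1 to 3 were above every P18 library, and P28 replicate 4 lay inside the P18 range. The log2 fold change was 0.69 ± 0.21, and edgeR did not call it. Without P28 replicate 4 it was 0.85 and called, in a fit that called 1.99% of all genes. The DESeq2 Wald test and limma with voom and quality weights called it with all 8 libraries, at 0.69 and 0.71, where they called 5.30% and 2.93% of all genes. Endothelial markers (11 genes, each with counts in every library) summed to 1080 to 1549 CPM at P18 and 1371 to 2210 CPM at P28. Of these, 6 had log2 fold changes above 0 and 5 below (median 0.01). Of 10 tested markers of pericytes and smooth muscle, 5 were above 0 and 5 below (median -0.13). The part of vessel cells in the Igfbp7 level was not tested. In the RefSeq annotation Igfbp7 overlaps Polr2b, and the strand setting of the counting is not given in the sources used here. Polr2b had a log2 fold change of -0.61 ± 0.41.

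**Figure D3:**
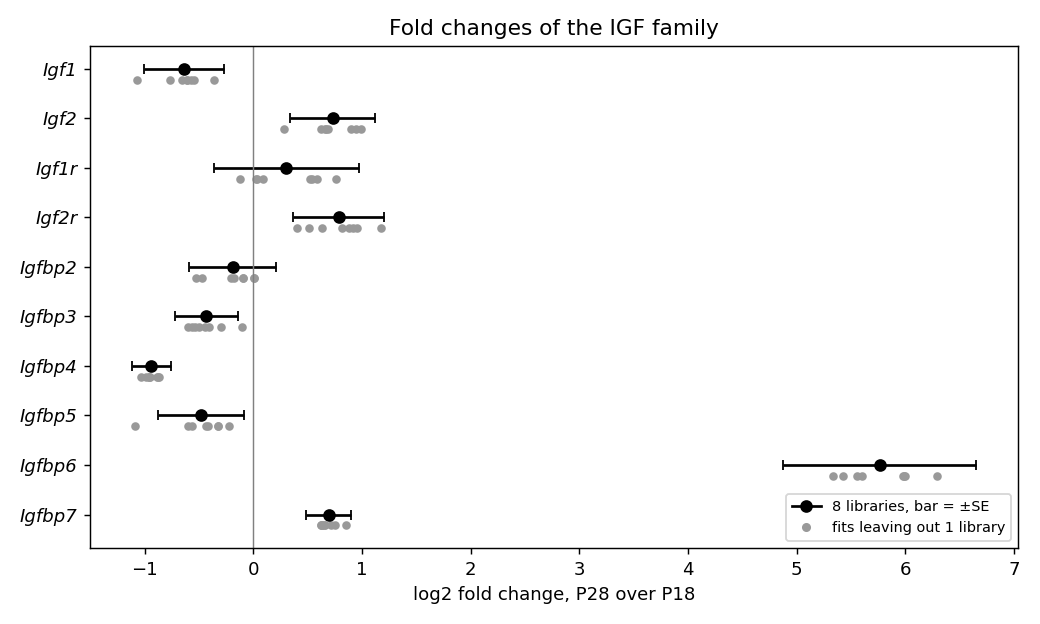
Log2 fold change of each member (x axis, P28 over P18) with its SE as a bar (black, 8 libraries), and the values of the 8 fits that each left out 1 library (grey). Igfbp6 lay at 5.33 to 6.29 in those fits, the signs of Igf1r and Igfbp2 turned in some of them, and the other 8 members kept their sign in each.

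The remaining binding proteins overlapped between ages and had log2 fold changes between -0.48 and -0.19. Igfbp5, a matrix-bound protein abundant in bone, lay at 228 to 396 CPM at P18 and at 193, 93.6, 445 and 146 CPM in P28 replicates 1 to 4. Its log2 fold change was -0.48 ± 0.40, and -1.09 without P28 replicate 3, whose level was above all others. Igfbp3, the main carrier of IGFs in serum, lay at 518, 210, 319 and 233 CPM in P18 replicates 1 to 4 and at 166 to 285 CPM at P28 (log2 fold change -0.44 ± 0.29). Without P18 replicate 1 that value was -0.10. Igfbp2, which carries an integrin-binding motif, ran from 76.6 to 306 CPM at P18 and from 106 to 311 CPM at P28 (-0.19 ± 0.40). Its sign turned without P18 replicate 2 and without P28 replicate 3, where it was 0.0083 and 0.0066. Igfbp1, the binding protein made mainly by liver, had 0 counts in all 8 libraries, and Igfals, the third part of the serum complex, likewise.

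Summed over Igfbp2 to Igfbp7, the binding protein transcripts came to 3014 ± 325 CPM at P18 and 3217 ± 597 CPM at P28, while their make-up differed. Igfbp4 held 28.0% to 32.5% of that sum at P18 and 12.4% to 18.2% at P28. Igfbp7 held 35.2% to 47.7% at P18 and 54.0% to 68.3% at P28. Neither of these shares overlapped between the ages. With Igfbp7 left out of the sum, the share of Igfbp4 did overlap, at 43.1% to 62.1% at P18 and 36.1% to 48.0% at P28. Shares of a sum depend on each other, and they are shares of counts, not of molecules, since long transcripts give more counts.

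**Figure D4:**
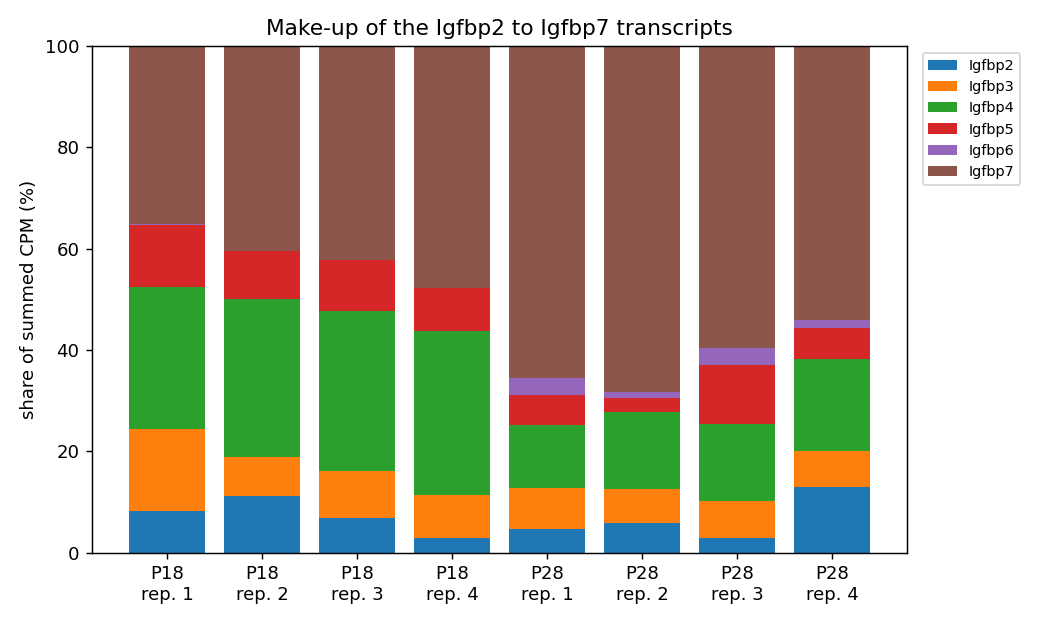
Share (y axis, %) of each binding protein gene in the summed CPM of Igfbp2 to Igfbp7, 1 bar per library. The Igfbp4 part (green) averaged 30.8% ± 1.95 at P18 and 15.2% ± 2.34 at P28, the Igfbp7 part (brown) 41.4% ± 5.17 and 61.9% ± 6.35, and the Igfbp6 part (purple) 0.0524% ± 0.0431 and 2.43% ± 1.16 (SD, n = 4).

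The share of Igfbp6 was up to 0.103% in the P18 libraries and 1.18% to 3.42% in the P28 libraries. It stayed a small part of the sum at P28. The ratio of Igfbp7 to Igfbp4 was 1.26, 1.29, 1.35 and 1.47 at P18 (replicates 1 to 4) and 5.27, 4.49, 3.96 and 2.98 at P28. Its lowest value at P28 was above its highest at P18. The ratio sets a member with a log2 fold change above 0 over the member that was lower without overlap. Its separation of the ages follows largely from that choice of pair, so nothing is read from it.

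Differences to the nearest profiles were smaller for the ligands than for Igfbp6. This measure grows with the spread of a profile itself, which was wider for Igfbp6, so nothing is read from that. Igf1 was most like Mfap2 (root mean square difference 0.196 in log2 CPM), which encodes a microfibril protein, then Gstm5 (0.243), Itgb5 (0.275), an integrin subunit, and Fstl3 (0.279), against a median of 0.924. Mfap2 had 1197 to 1321 CPM at P18 and 778, 330, 959 and 1386 CPM at P28 (replicates 1 to 4). As with Igf1, the level was lowest in P28 replicate 2 and high in P28 replicate 4. Igf2 was most like Cenpf (0.182), Dhrsx (0.236), S100a13 (0.239) and Plekho1 (0.240), against a median of 0.873. Cenpf encodes a kinetochore protein of dividing cells. Its P28 levels were 90.3, 51.4, 134 and 32.2 CPM (replicates 1 to 4), in the same order of libraries as Igf2 at that age. The near genes were picked for their likeness over these same libraries, so such shared patterns follow from the choice.

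Beyond the family, 10 lists of genes were counted, most of them on genes that produce, release or transmit the IGF signal. The lists also took in secreted proteins with an IGFBP-type domain and imprinted genes of fetal growth. Those were not listed for a part in the signal, and Mest was listed only as an imprinted growth gene. Outside the 10 members, 156 of their genes were tested; 1 was called higher (Cdkn1a) and 3 lower (H19, Gpc3 and Mest), or 2.56%, where 0.936% of all genes were called. Their median log2 fold change was 0.04. Of the 156, 6 were higher and 17 lower without overlap of the ages, as were 4.91% and 5.54% of all genes tested. Genes named from the lists are the called ones and the 3 further with the lowest p, so a lack of overlap is likely among them. Of all genes tested, 50.3% had log2 fold changes above 0. Counts at an unadjusted p under 0.05 in the lists below stand against 14.5% of all genes tested, and calls by DESeq2 and voom against 5.30% and 2.93%. Genes of the lists were chosen with earlier results of these libraries known, Mest and Gpc3 among them. The 2.56% called and the counts without overlap are therefore not independent evidence. Gpc3, a cell-surface proteoglycan of growth control, had a log2 fold change of -3.39 ± 0.45 and Mest, an imprinted gene, one of -2.72 ± 0.39 (edgeR adjusted p = 0.00681 and 0.0107). Gpc3 was no longer called with the replicate block (edgeR adjusted p = 0.0525), nor Mest without P18 replicate 2 (0.0577). Cdkn1a, at 15.4 ± 7.89 and 78.2 ± 9.22 CPM, was no longer called when P18 replicate 2, 3 or 4, or P28 replicate 1 or 3, was left out (edgeR adjusted p = 0.0684, 0.0801, 0.0671, 0.0857 and 0.0570). Of the 15 tested imprinted and growth control genes, 12 were below 0 and 3 above (median -0.84). Of these 15, edgeR called 3 lower and 0 higher, where it called 0.420% of all genes lower. DESeq2 called 5 lower and voom 3, and 6 had an unadjusted p under 0.05. Igf2 and Igf2r were 2 of the 3 members of that list with values above 0. Peg3, an imprinted zinc finger gene, had 293 ± 85.0 and 148 ± 35.8 CPM without overlap (edgeR adjusted p = 0.0958). Zim1 had 2.04 ± 1.35 CPM at P18 and 0 counts in each P28 library, so no fold is given.

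The growth hormone axis, which drives Igf1, held 11 tested genes with 0 called by edgeR (1 at an unadjusted p under 0.05, 1 called by DESeq2 and 0 by voom). That gene was Ghr, the growth hormone receptor, at 145, 139, 143 and 115 CPM in P18 replicates 1 to 4 and 81.7, 32.3, 82.0 and 75.5 CPM in P28 replicates 1 to 4. The ages did not overlap. Its means were 136 ± 14 and 67.9 ± 23.9 CPM (edgeR adjusted p = 0.128, DESeq2 0.0443). Next to the receptor, 24 tested adaptors and regulators held 0 edgeR calls (2 at an unadjusted p under 0.05, 1 called by DESeq2, 0 by voom). Grb10, an imprinted adaptor that dampens receptor signalling, lay at 406 ± 62.9 and 226 ± 67.4 CPM without overlap (log2 fold change -0.84 ± 0.24, edgeR adjusted p = 0.119, DESeq2 0.0197). Shc1, an adaptor towards RAS, differed on the log2 scale by -0.56 ± 0.22 (edgeR adjusted p = 0.246).

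Downstream, neither signalling branch held a call by edgeR. The PI3 kinase, AKT and mTOR list had 32 tested genes, 20 above 0 and 12 below, with a median of 0.11 (0 called, 3 at an unadjusted p under 0.05, 1 by DESeq2, 0 by voom). Foxo4, a factor that AKT holds out of the nucleus, lay at 1.36 ± 0.75 and 8.36 ± 1.41 CPM without overlap (edgeR adjusted p = 0.25). Eif4e, the cap-binding translation factor, was lower without overlap, at 102 ± 8.59 and 63.4 ± 25.5 CPM, and Bad, a pro-apoptotic AKT target, had 87.4 ± 8.53 and 123 ± 22.8 CPM with overlap (edgeR adjusted p = 0.309 and 0.321). The RAS and MAP kinase list had 21 tested genes and a median of -0.07 (0 called, 3 at an unadjusted p under 0.05, 1 by DESeq2, 0 by voom). Rps6ka3, which encodes the kinase RSK2, had 35.6 ± 8.84 and 9.47 ± 5.69 CPM without overlap (edgeR adjusted p = 0.108). Hras, a RAS gene, was higher without overlap, at 76.6 ± 16.4 and 123 ± 26.9 CPM, and Rasa1, which switches RAS off, lower without overlap, at 65.2 ± 13.2 and 39.7 ± 9.15 CPM (edgeR adjusted p = 0.217 and 0.282). Of 18 tested genes that FOXO factors are known to activate, 14 were above 0 and 1 was called, the cell cycle inhibitor gene Cdkn1a (median 0.27). DESeq2 called 1 and voom 2, and 3 had an unadjusted p under 0.05. Cdkn1a also answers to p53 and other inputs. The next by p went both ways: Bcl6, a transcriptional repressor, had 5.72 ± 5.89 and 28.3 ± 8.19 CPM, higher without overlap, and Sesn1, a stress-induced inhibitor of mTOR signalling, had 42.9 ± 11.4 and 18.4 ± 8.62 CPM, lower without overlap (edgeR adjusted p = 0.244 and 0.258). Ccng2, a cyclin gene, had 76.5 ± 25.6 and 48.4 ± 14.4 CPM with overlap (edgeR adjusted p = 0.373).

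Proteases that cut binding proteins, with their inhibitors, were above 0 for 10 of 12 tested genes (median 0.29). None was called by edgeR, with 6 at an unadjusted p under 0.05, 4 called higher by DESeq2 (C1s, Ctsd, Mmp9 and Prss23) and 0 by voom. Ctsd, which encodes the lysosomal protease cathepsin D, lay at 354 ± 37.3 and 588 ± 151 CPM (log2 fold change 0.73 ± 0.21, edgeR adjusted p = 0.132). C1s, a complement protease that cuts IGFBP5, differed on the log2 scale by 0.91 ± 0.27 (adjusted p = 0.140). Mmp9, an osteoclast and neutrophil gelatinase, is in the osteoclast marker list too. Its level was 333 CPM in P28 replicate 1, 449 CPM in P28 replicate 3 and at most 25.7 CPM elsewhere (edgeR adjusted p = 0.107). Of 10 tested secreted proteins with an IGFBP-type domain, 0 were called by edgeR (4 at an unadjusted p under 0.05, 2 called by DESeq2 and 3 by voom). Htra3, a serine protease, lay at 1488 ± 195 and 636 ± 338 CPM without overlap (log2 fold change -1.23 ± 0.34, edgeR adjusted p = 0.117), and Wisp2, a CCN family protein, at 3.92 ± 3.74 and 29.8 ± 9.48 CPM without overlap (2.92 ± 1.07, adjusted p = 0.224).

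Among 21 tested partners reported for the binding proteins, 10 were above 0 and 11 below. Of these, edgeR called Gpc3 lower and 0 higher (5 at an unadjusted p under 0.05). DESeq2 called 1 higher and 3 lower and voom 1 and 1. Tnc, which encodes the matrix protein tenascin C, had 92.9 ± 29 and 23.3 ± 12.9 CPM without overlap (edgeR adjusted p = 0.0881). Phb2, the prohibitin to which IGFBP6 binds, had 216 ± 23.0 and 142 ± 6.57 CPM without overlap (log2 fold change -0.60 ± 0.17, edgeR adjusted p = 0.130, DESeq2 0.0447). Fn1, which encodes fibronectin, differed on the log2 scale by 0.87 ± 0.27 (edgeR adjusted p = 0.144).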

How the data were processed

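The authors deposited raw counts per gene symbol. The build rn6 and the tools edgeR 3.16.5, HTSeq 0.9.1 and STAR 2.5.3a are named in the submitters' processing notes; the sources used here give neither their roles nor the annotation or strand setting. A further 40 sample columns of the table and the deposited normalized table were left out. Counts were fitted with edgeR 4.0.16 in R 4.3.3 (quasi-likelihood test, 2-sided, TMM scaling, age as the only term, filter by age with a minimum count of 10, 10472 genes) and p was adjusted by Benjamini-Hochberg over all of them, with calls under 0.05. The SE of a log2 fold change came from its ratio to the root of the F value. The fit was tested on simulated counts.

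Members and lists were chosen with earlier results of these data known. Genes were named from all members, the called genes and the 3 further genes with the lowest p in each list, and the 4 nearest profiles (mean log2 CPM of at least 3, prior count 2) of Igfbp6, Igf1 and Igf2. Alternatives were DESeq2 1.42.0 (size factors, Wald test), upper-quartile scaling, limma 3.58.1 voom with quality weights, other filters, a replicate block and leaving out each library.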

Additional observations from a re-analysis of the deposited data

Results flagged for a closer look

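Of 20 sets of 4 libraries (10 members at 2 ages), 2 held a library far from the other 3 of its age by Dixon's criterion, which chance meets in about 1 of 20. Igfbp7 lay at 1292 CPM in P28 replicate 4, where the next library lay at 2166 CPM. Igf2 lay at 317 CPM in P18 replicate 1, where the next lay at 217 CPM.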

How the results depend on the processing

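The count of all genes called was 98, and 552 with the DESeq2 Wald test, 307 with voom and quality weights, 26 with the replicate block and 9 to 215 leaving out 1 library (lowest without P18 replicate 2, highest without P28 replicate 4). Of the family, 2 members were called, 0 with the replicate block and 0 to 3 leaving out 1 library. It was 0 without P18 replicate 2 or P28 replicate 1, and 3 without P28 replicate 4. Of the pathway genes outside the family 4 were called, 18 with the DESeq2 Wald test, 9 with voom and quality weights, 3 with the replicate block and 2 to 6 leaving out 1 library. Deviations of same-numbered libraries of the ages had correlations across genes of -0.0196 to 0.0019. Each deviation is taken from a mean of 4 that includes the library itself, so these values cannot exclude a tie by number. Animals of the ages were treated as unrelated. Leaving out a library or adding the block leaves fewer residual degrees of freedom. Without P28 replicates 2 and 4 the count of all genes called was 136 and 215. What moved the counts was not tested. The log2 fold change of Igf1r ran from -0.12 to 0.76 and that of Igfbp2 from -0.53 to 0.0083 leaving out 1 library (0.0083 without P18 replicate 2 and 0.0066 without P28 replicate 3). With Igfbp7 left out of the sum, the share of Igfbp4 was 53.1% at P18 and 40.2% at P28 and that of Igfbp6 at P28 was 6.45%, since the sum is smaller by construction, and the Igfbp4 shares of the ages then overlapped. At P18, Igfbp6 had 109 counts in all, so its fold change is known only roughly.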
